A study of Mus musculus with 24 samples.

Results

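The microRNA content of BV2 cells that had received transforming growth factor beta (TGF-β) was compared with that of control cells, over every microRNA precursor in the deposited table. BV2 is an immortalised mouse microglial cell line. The table lists 1187 precursors, all of which belong to the comparison, and 259 of them had enough reads to be tested. The treated cells had received TGF-β at 50 ng/mL for 72 h, and the control cells are labelled as controls with no vehicle named. Each group had 3 libraries, so the comparison rests on 6 of the 24 small RNA libraries of the study. The other groups used here were BV2 cells given interleukin-10 (IL-10) at 50 ng/mL or lipopolysaccharide (LPS) at 100 ng/mL for the same 72 h, and the extracellular vesicles (EVs) released by control and TGF-β cultures, with 3 libraries each. EVs of cultures given IL-10 or LPS at the same doses and time, again 3 libraries each, entered only the fit of cells against EVs. All groups derive from 1 cell line. Nothing in the labels ties the 3 libraries to separate cultures, so p-values here reflect only the variation among these libraries, part or all of which may be technical.

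The 6 libraries held 283222 to 409969 counts, so that a count of 0 allows a share of up to 0.000732% to 0.00106% of a library, counting error only. Of the 1187 precursors, 572 were at 0 in all 6 libraries and 356 more had too few counts to be tested, with at most 42 counts over the 6 libraries. The tested precursors held at least 99.8178% of the counts in every library. The label of microglia was set against marker precursors. The myeloid list summed to 1733 to 2548 counts in control and 1370 to 1780 in TGF-β libraries, or 0.635% ± 0.0451 and 0.516% ± 0.0335 of all counts (SD, n = 3), and 5 of its 7 tested members had a negative log2 fold change. Of these counts mir-142a held 851, 1287 and 975 in control and 808, 1006 and 984 after TGF-β. The neuronal list summed to 62 to 94 counts in control and 34 to 57 in TGF-β libraries, with mir-218-1 and mir-218-2 at 0 in all 6, and the oligodendrocyte list to 9 to 19 and 6 to 8. The epithelial list summed to 2 to 13 and 6 to 13 counts, with mir-200a, mir-141 and mir-205 at 0 in all 6. The fibroblast list summed to 151 to 279 and 134 to 275 counts, with mir-145a at 0 in all 6. The lists for muscle and for serum, red cells and liver never exceeded 2 counts in a library, and the endothelial mir-126a had 19 to 76 and 43 to 49. The part of these cells or sequences in the results was not tested. In these bulk samples, fewer cells of a type and less RNA per cell cannot be told apart.

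TGF-β is a secreted cytokine that signals through paired receptor kinases to the SMAD transcription factors. In the brain it is known for keeping microglia in their resting, homeostatic state. A microRNA is cut from a hairpin precursor, often one of several on a shared primary transcript, and the seed near its 5′ end pairs with target messenger RNAs. Precursors of a cluster can be transcribed together and still yield unequal amounts of mature microRNA, since each hairpin is processed and each product decays on its own. The deposited counts are per precursor and do not separate the 2 arms of a hairpin.

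The mature sequences of the precursors on which the results turn are given here because several share a seed or lie beside each other, which the values below follow. They come from RefSeq (GRCm38.p6), run 5′ to 3′, and carry the seed, bases 2 to 8, in capitals. A mature sequence was matched by name for 16 of the 17 precursors that passed the test and for 171 of the 259 tested; let-7j was not among them. The first group holds the products of precursors that fell, with relatives that share their seed.
miR-222-3p: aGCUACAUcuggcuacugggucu
miR-221-3p: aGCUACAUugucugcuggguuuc
miR-351-5p: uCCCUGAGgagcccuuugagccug
miR-125b-5p: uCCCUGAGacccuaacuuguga
miR-322-5p: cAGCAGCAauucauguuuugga
miR-503-5p: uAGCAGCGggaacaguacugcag
miR-15a-5p: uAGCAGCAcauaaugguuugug
miR-16-5p: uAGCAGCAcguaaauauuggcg
miR-21a-5p: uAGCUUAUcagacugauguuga
miR-223-3p: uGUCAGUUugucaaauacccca
miR-210-3p: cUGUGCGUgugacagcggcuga
miR-326-3p: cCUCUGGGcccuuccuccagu

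The second group holds products of precursors that rose, with miR-106b-5p, which shares the seed of miR-93-5p and lies beside it.
let-7i-5p: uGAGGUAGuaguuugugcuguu
miR-23a-3p: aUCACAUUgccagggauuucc
miR-93-5p: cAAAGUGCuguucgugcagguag
miR-106b-5p: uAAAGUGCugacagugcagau
miR-504-5p: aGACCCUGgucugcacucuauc
miR-34a-5p: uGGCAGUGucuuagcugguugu
miR-744-5p: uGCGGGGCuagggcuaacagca
miR-872-5p: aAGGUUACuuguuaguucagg

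After TGF-β, mir-222, mir-21a, mir-351, mir-223, mir-210, mir-322, mir-503 and mir-326 fell, and let-7j, let-7i, mir-504, mir-23b, mir-93, mir-23a, mir-744, mir-872 and mir-34a rose. These 17 precursors, 6.56% of the 259 tested, had an adjusted p under 0.05 (edgeR's quasi-likelihood F test with Benjamini-Hochberg adjustment) and are called changed, 9 of them higher (3.47%) and 8 lower (3.09%). The lower ones moved further. Of the 7 with an absolute log2 fold change of at least 1, mir-504 rose and the other 6 fell. As a share of all counts, the 8 lower precursors went from 0.817% ± 0.0580 (SD, n = 3) to 0.312% ± 0.0269, and the 9 higher ones from 5.16% ± 0.269 to 7.00% ± 0.496. The median log2 fold change of all tested precursors was 0.09, with quartiles at -0.22 and 0.26. In 67 precursors (25.9% of those tested) the 3 libraries of one group lay apart from the 3 of the other, 33 higher and 34 lower, and all 17 were among them. The balance of directions moved with the scaling. With DESeq2's size factors the calls split into 8 higher and 17 lower around a median of 0.03, and with library totals alone into 5 higher and 19 lower around a median of -0.06.

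**Figure D1:**
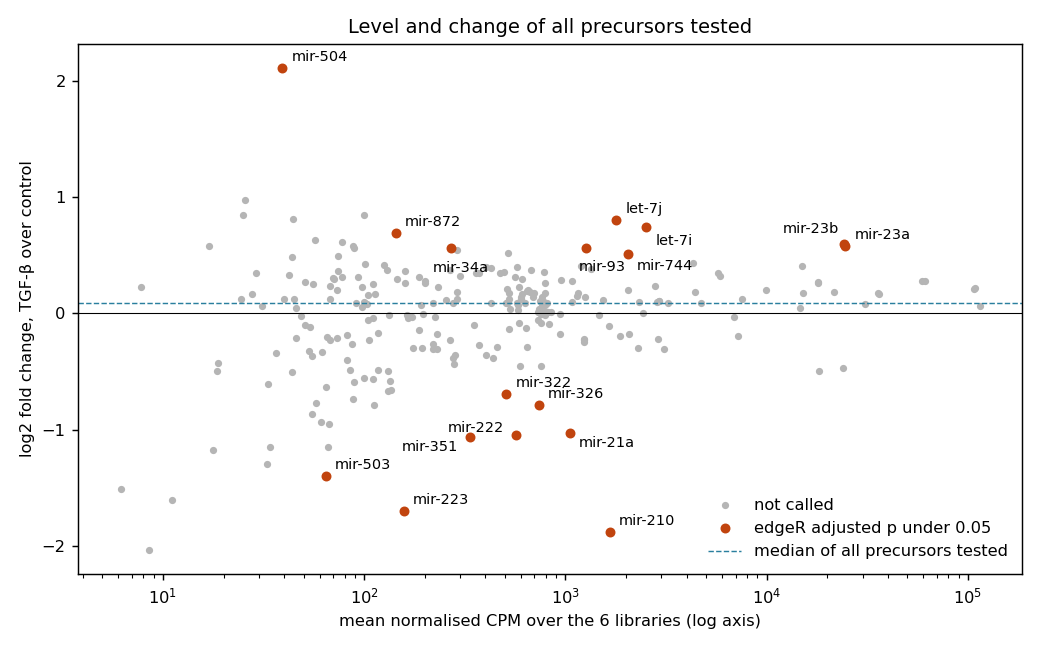
Each point is 1 of the 259 precursors tested. The horizontal axis gives its mean normalised CPM, the count scaled by library total and TMM factor, over the 6 libraries (log axis), the vertical axis its log2 fold change after TGF-β, and the dashed line the median of 0.09. The 17 named points had an edgeR adjusted p under 0.05, and 6 of the 7 with an absolute log2 fold change of at least 1 lie below the line.

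Among the precursors that fell, mir-21a is the source of a microRNA that is abundant in activated myeloid cells. It lies at chr11:86584067-86584158 (GRCm38), minus strand, in an exon of a transcript of Vmp1. It had 440, 644 and 506 counts in the control libraries and 183, 253 and 221 after TGF-β. In normalised CPM, for which each count is divided by its library total and TMM factor, the means were 1415 ± 181 (SD, n = 3) and 695 ± 101. The groups did not overlap, and the level was 2.04-fold lower (log2 -1.03 ± 0.14 SE, edgeR adjusted p = 4.14e-05). The fall of mir-223, a precursor known as a myeloid marker whose product represses Nlrp3, was steeper. It lies at chrX:96242817-96242926, plus strand, in an exon of the non-coding gene F630028O10Rik. Its counts were 74, 99 and 94 in control and 28, 26 and 15 after TGF-β, all treated libraries lying below all controls. It was 3.24-fold lower (log2 -1.70 ± 0.25, edgeR adjusted p = 4.14e-05).

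The largest fall among the 17 was that of mir-210, known as a target of hypoxia-inducible factor, at chr7:141221384-141221493, minus strand, outside any gene of its strand. It had 992, 1069 and 854 counts in control and 304, 141 and 213 after TGF-β. The treated libraries spread more than the controls, at 1083, 451 and 599 CPM against 2721, 2503 and 2582, and the groups stayed apart. The level was 3.68-fold lower (log2 -1.88 ± 0.30, edgeR adjusted p = 0.000111). A smaller fall was measured for mir-326, which lies in an intron of Arrb1 at chr7:99552269-99552363. It had 283, 424 and 340 counts in control and 155, 177 and 180 after TGF-β, and was 1.72-fold lower without overlap (log2 -0.78 ± 0.19, edgeR adjusted p = 0.00892). Without TGF-β library 3 its adjusted p was 0.0664.

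The remaining 4 that fell come from 2 clusters on the X chromosome. The product of mir-222 represses the cell-cycle inhibitor Cdkn1b, as does that of its neighbour mir-221. At chrX:19146893-19146971, mir-222 had 265, 349 and 250 counts in control and 104, 103 and 146 after TGF-β. It was 2.07-fold lower with no overlap (log2 -1.05 ± 0.14, edgeR adjusted p = 4.14e-05). The other 3 belong to the mir-322 cluster, whose products miR-322 (named miR-424 in humans) and miR-503 are known to repress cyclins. From 5′ to 3′ on the minus strand these are mir-322 at chrX:53054255-53054349, mir-503 at chrX:53053984-53054054 and mir-351 at chrX:53053255-53053353, and none lies in another gene on that strand. The counts of mir-322 were 199, 271 and 234 in control and 97, 130 and 143 after TGF-β. Those of mir-503 were 30, 37 and 37, then 13, 13 and 7, and those of mir-351 were 163, 185 and 160, then 64, 69 and 73. In each of the 3 every treated library lay below every control. The falls were 1.62-fold for mir-322 (log2 -0.69 ± 0.14, edgeR adjusted p = 0.00186), 2.64-fold for mir-503 (log2 -1.40 ± 0.33, adjusted p = 0.00754) and 2.08-fold for mir-351 (log2 -1.06 ± 0.15, adjusted p = 4.14e-05).

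**Figure D2:**
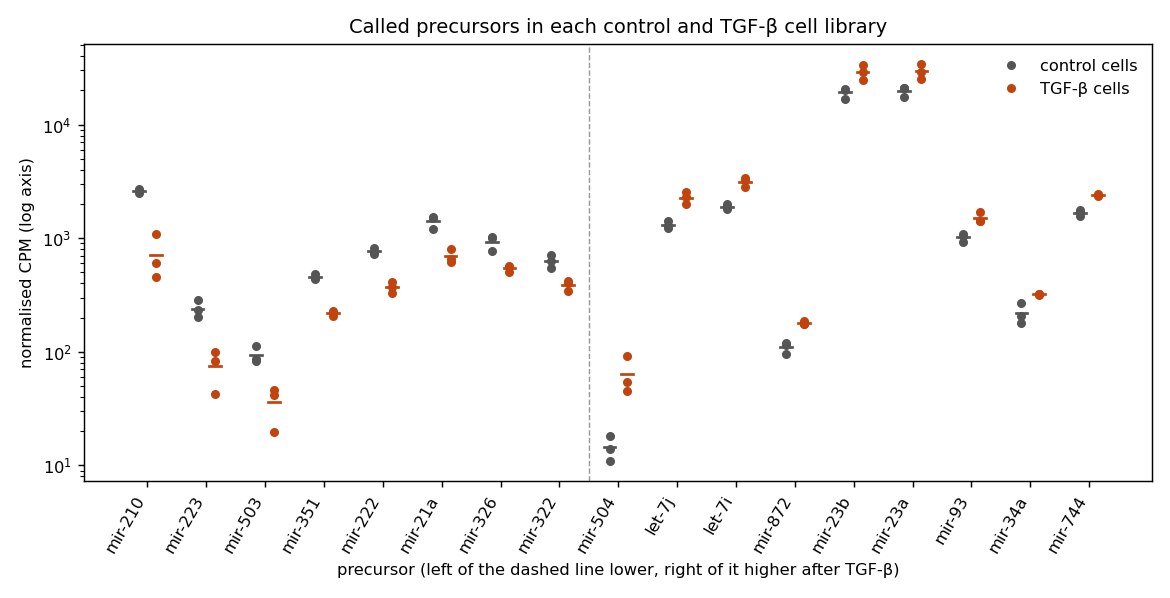
Normalised CPM (log axis) of the 17 precursors that passed the test, with a point for each of the 3 control and 3 TGF-β libraries and a line at each group mean. The 8 precursors left of the dashed line fell and the 9 right of it rose, and in each the 2 groups of points do not overlap.

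Of the precursors that rose, let-7i belongs to the let-7 family, which is blocked by Lin28 in immature cells and represses Hmga2 and Ras genes. It lies outside genes of its strand at chr10:122985640-122985724. It had 654, 851 and 618 counts in control and 905, 1065 and 999 after TGF-β, or 1885 ± 101 and 3148 ± 306 CPM (SD, n = 3). All treated libraries exceeded all controls, and the rise was 1.67-fold (log2 0.74 ± 0.13, edgeR adjusted p = 0.000345). For let-7j the counts were 444, 603 and 427, then 651, 788 and 707, a rise of 1.74-fold (log2 0.80 ± 0.13, edgeR adjusted p = 0.000236). In each of the 6 libraries let-7j had 0.679 to 0.740 times the count of let-7i. How reads that fit several precursors were counted is not given in the sources used here, so both may rest on shared reads. Together they held 0.365% ± 0.0124 of control and 0.556% ± 0.0155 of TGF-β counts.

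The same limit holds for mir-23a and mir-23b, whose main products are nearly identical and whose counts stood in a ratio of 0.968 to 0.989 in every library. The host gene of mir-23b is 2010111I01Rik (intron, chr13:63300484-63300557), while mir-23a lies outside genes of its strand at chr8:84208518-84208592. The counts of mir-23a were 6305, 8925 and 6961 in control and 8222, 10684 and 8899 after TGF-β. The 1.49-fold rise of mir-23a (log2 0.58 ± 0.14, edgeR adjusted p = 0.00911) and the 1.52-fold rise of mir-23b (log2 0.60 ± 0.14, adjusted p = 0.00781) showed no overlap in CPM, which for mir-23a was 17292, 20901 and 21044 in control and 29285, 34210 and 25043 after TGF-β. Without TGF-β library 2 the adjusted p-values were 0.0661 and 0.0585. The product of mir-93, in Mcm7 at chr5:138165523-138165610, is known to repress Cdkn1a and the TGF-β receptor gene Tgfbr2. Its counts were 339, 447 and 359 in control and 394, 528 and 507 after TGF-β, or 1021 ± 81.0 and 1507 ± 160 CPM. The ranges of the counts overlap, while those of the CPM, scaled for depth, do not, and the rise was 1.48-fold (log2 0.56 ± 0.14, edgeR adjusted p = 0.00892). It missed the threshold without control library 1 (0.0539) and without TGF-β library 2 (0.0585).

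The largest rise was that of mir-504, in an intron of Fgf13 at chrX:59097658-59097736. It was scarce, with 4, 6 and 6 counts in control and 26, 17 and 16 after TGF-β. In the control, IL-10 and LPS cell libraries it had at most 6 counts. It therefore passed the low-count filter (minimum count 10) through its TGF-β libraries alone, and its p-value is not independent of that. At 4.31-fold higher (log2 2.11 ± 0.45, edgeR adjusted p = 0.00309) it was also the precursor with the lowest control level of the 17, 14.4 ± 3.60 CPM. The remaining 3 rose by less than 1 on the log2 scale. The human counterpart of miR-744 is known to repress TGFB1, the gene for the ligand itself, and mir-744 (intron of Map2k4, chr11:65734733-65734832) went from 1678 ± 105 to 2390 ± 59.2 CPM (log2 0.51 ± 0.14, edgeR adjusted p = 0.0252). For mir-872 (intron of Ift74, chr4:94665157-94665237) the means were 110 ± 12.4 and 178 ± 6.48 CPM (log2 0.69 ± 0.20, adjusted p = 0.0310). For mir-34a, a target of p53 at chr4:150068454-150068555, they were 218 ± 45.6 and 321 ± 3.10 CPM (log2 0.56 ± 0.17, adjusted p = 0.0466). In CPM the groups did not overlap in these 3. Their calls were the least stable. Of the alternative settings given in the closing section that tested them, mir-744 missed the threshold under 10 of 15, mir-872 under 11 of 14 and mir-34a under 14 of 15.

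The measured log2 fold change differed among neighbours within 10 kb of a called precursor. In control cells mir-221, 505 bases from mir-222, had 231, 276 and 259 counts, against 144, 163 and 169 after TGF-β. Its libraries did not overlap, but its log2 fold change of -0.45 ± 0.14 missed the threshold (edgeR adjusted p = 0.0600). The count ratio of mir-222 to mir-221 in the same library was 1.15, 1.26 and 0.965 in control and 0.722, 0.632 and 0.864 after TGF-β. Each treated library had the lower ratio, the treated mean being 0.655 times the control mean. Such a ratio needs no scaling between libraries. Of 10 ratios computed for neighbours or family members, chosen after their values were seen, 8 did not overlap between groups. For 3 against 3 libraries the smallest two-sided p of an exact permutation test is 0.1, which those 8 reached (0.125 after Benjamini-Hochberg adjustment over the 10). Since the pairs were chosen from their values, neither the 8 nor these p-values test whether neighbours differ. The share over all possible pairs was not computed, and the ratios here are a description.

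Within the mir-322 cluster, the ratio of mir-322 to mir-351 was 1.22, 1.46 and 1.46 in control and 1.52, 1.88 and 1.96 after TGF-β, without overlap. Further along the cluster mir-542, 3768 bases from mir-351, had 21 counts over the control and 10 over the TGF-β libraries, too few to test. Beyond it mir-450b, 5177 bases from mir-351, had 11, 8 and 7 counts in control and 6, 10 and 8 after TGF-β (log2 0.12 ± 0.50, edgeR adjusted p = 0.908). Its ratio under mir-322 did not overlap either, at 18.1, 33.9 and 33.4 counts of mir-322 per count of mir-450b in control and 16.2, 13.0 and 17.9 after TGF-β. In the Mcm7 cluster, mir-93 and mir-106b differed in sign. The counts of mir-106b, 127 bases from mir-93, were 179, 186 and 142 in control and 93, 129 and 113 after TGF-β (log2 -0.35 ± 0.15, edgeR adjusted p = 0.157). The ratio of mir-93 to mir-106b was 1.89, 2.40 and 2.53 in control and 4.24, 4.09 and 4.49 after TGF-β, without overlap and 1.89 times higher on average. The third member, mir-25, had a log2 fold change of 0.41 ± 0.14 (edgeR adjusted p = 0.0693), and its ratio to mir-93 overlapped between groups. Beside mir-23a, mir-27a and mir-24-2 had log2 fold changes of 0.19 and 0.26, and beside mir-23b, mir-27b and mir-24-1 had 0.36 and 0.27, with edgeR adjusted p-values of 0.452, 0.209, 0.129 and 0.206. The ratio of mir-23a to mir-24-2 was 1.14, 1.25 and 1.21 in control and 1.45, 1.56 and 1.47 after TGF-β. The counts of mir-24-1 and mir-24-2 were nearly equal (5492 and 5537 in control library 1), and both yield miR-24-3p. The products miR-27a-3p and miR-27b-3p are nearly identical. Reads may thus be shared here too, and these values cannot be assigned to the mir-23a or the mir-23b cluster alone.

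**Figure D3:**
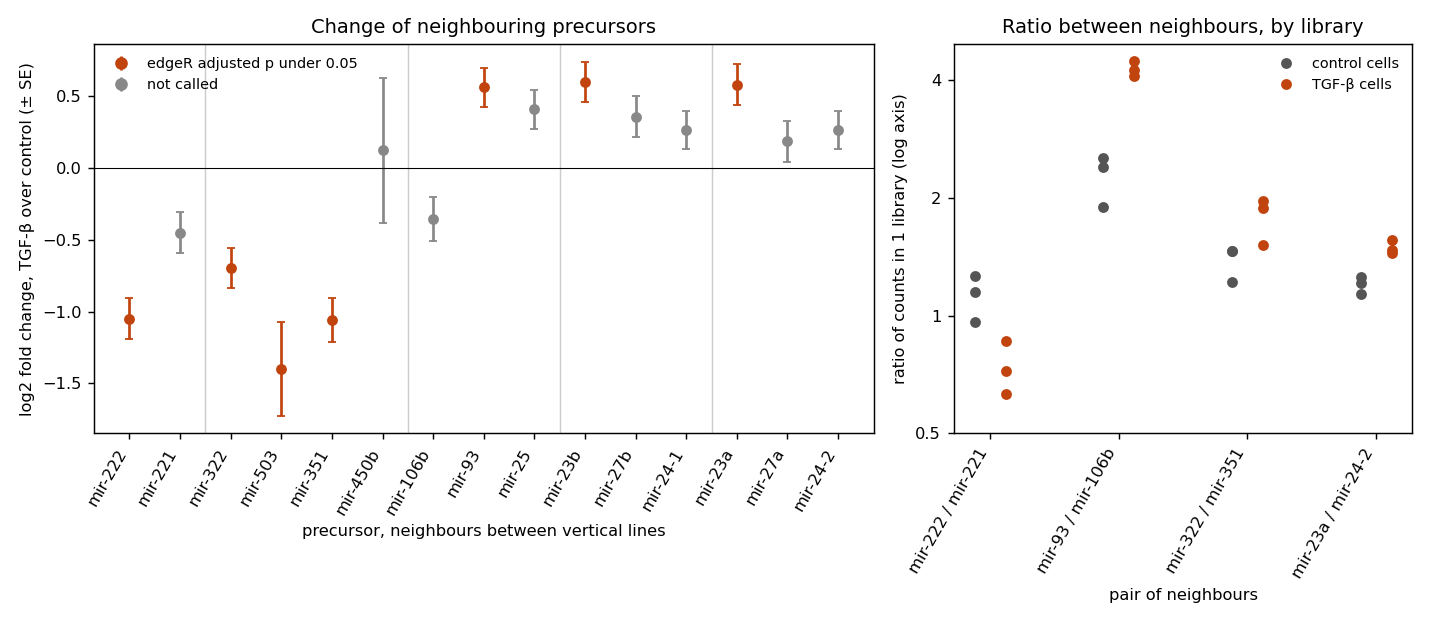
Left, log2 fold change with its SE for called precursors and their neighbours, those of 1 cluster standing between vertical lines, with orange for an edgeR adjusted p under 0.05 and grey for the rest. Right, the ratio of counts within each library (log axis) for 4 pairs of neighbours chosen from their values, with a point for each control and TGF-β library. The groups do not overlap in any of the 4.

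Among tested precursors whose matched product shares a seed with that of a called one, 0 passed the test themselves, against 6.56% of all 259 tested. These relatives were few, 1 to 11 for each seed that had any. At that share few calls would arise among them, so the 0 is a description and no result about seed relatives. No sequence was matched for let-7j or for the 3p arm of mir-23b, so they could not enter this count. Both precursors rose, as did let-7i and mir-23a. The sequences of miR-222-3p and miR-221-3p carry the seed GCUACAU, and mir-222 passed while mir-221 missed the threshold. The seed CCCUGAG of miR-351-5p is also that of miR-125b-5p, for which mir-125b-1 had 14, 22 and 17 counts in control and 4, 9 and 7 after TGF-β. The copy mir-125b-2 had the same counts in 5 of the 6 libraries, and 5 in TGF-β library 3. Neither passed alone (log2 -1.15 ± 0.40 and -1.29 ± 0.41, edgeR adjusted p = 0.0889 and 0.0676), though the groups did not overlap. With library totals both passed (edgeR adjusted p = 0.0381 and 0.0219), and mir-125b-2 also with DESeq2's size factors (0.0430) and without TGF-β library 2 (0.0382). With the copies summed to 1 feature, mir-125b had a log2 fold change of -1.29 ± 0.29 (edgeR adjusted p = 0.00712). Given the equal counts of the copies, this sum may count the same reads more than once. Its smaller SE and adjusted p therefore add no support beyond the single copies. The seed AGCAGCA of miR-322-5p is that of miR-15a, miR-15b and miR-16, whose precursors had log2 fold changes of -0.73 (mir-15a), -0.10 (mir-15b), 0.35 (mir-16-1) and 0.35 (mir-16-2), of which 0 passed. The seed AAAGUGC of miR-93-5p recurs in 4 other tested precursors, mir-106b, mir-106a, mir-17 and mir-20a, at -0.35 to 0.27, of which 0 passed. Of the other 11 tested precursors with a matched product that holds the let-7 seed GAGGUAG, again 0 passed. Within each library the count of let-7i was 0.385, 0.397 and 0.345 times that of let-7g in control and 0.497, 0.488 and 0.488 times after TGF-β.

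By position, 5 of the 8 precursors that fell (mir-222, mir-351, mir-322, mir-503 and mir-223) and mir-504 of those that rose lie on the X chromosome, where 24 tested precursors were placed, against 6.56% called and 3.09% called lower over all 259. Of these, mir-322, mir-503 and mir-351 are neighbours in 1 cluster. The median log2 fold change of the 24 was -0.11, and that of the other 235 was 0.09. Among the X-linked precursors that did not pass, mir-188, in an intron of Clcn5, had 40, 28 and 30 counts in control and 14, 12 and 17 after TGF-β (log2 -0.95 ± 0.31, edgeR adjusted p = 0.0676). A 5-base motif, CAGAC or its reverse complement GUCUG, that SMAD proteins are known to bind in some hairpin stems was looked for in the RefSeq hairpins. It was in 3 of the 15 called hairpins searched (mir-21a, mir-326 and mir-504) and in 30 of the 163 tested ones (18.4%), and these 3 did not share a direction.

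Precursors known to respond to TGF-β in other tissues were described as lists, with counts and medians to be read beside the 6.56% called and the median of 0.09 over all tested. Of 18 precursors known to rise elsewhere, 10 were tested. The list includes mir-21a, the processing of which is raised by SMAD proteins in vascular smooth muscle, and mir-21a fell here. Of the others mir-23a rose and 8 did not pass, and the median log2 fold change was 0.26 (0.11 with library totals). Of 11 precursors known to fall elsewhere, 4 were tested and 0 passed, all of the miR-29 family, with a median of -0.15. In that family mir-29a and mir-29c had log2 fold changes of 0.26 and 0.32, and mir-29b-1 and mir-29b-2 had -0.58 and -0.56, with edgeR adjusted p-values of 0.122 to 0.291. The copies mir-181a-1 and mir-181a-2 stood at 0.56 and 0.58 with overlapping groups (edgeR adjusted p = 0.294 and 0.291). Their counts were nearly equal, so they may share reads, as may mir-29b-1 and mir-29b-2, which both yield miR-29b-3p.

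Of the myeloid list 7 of 9 were tested and 2, mir-223 and mir-21a, fell, with a median of -0.43. The change of mir-142a was 0.10 ± 0.16 and that of mir-146a 0.28 ± 0.16 on the log2 scale (edgeR adjusted p = 0.710 and 0.282). Of the precursors held to mark resting microglia, mir-99a had 0, 2 and 2 counts in control and 1, 0 and 0 after TGF-β, too few to test. Beside the mir-125b copies given above, mir-342 stood at -0.11 ± 0.26 (edgeR adjusted p = 0.799). Of the precursors induced through Toll-like receptors and NF-kB 5 of 10 were tested, and mir-21a alone passed. In that list mir-155 had 7, 8 and 9 counts in control and 3, 8 and 4 after TGF-β (log2 -0.43 ± 0.48, edgeR adjusted p = 0.611), and mir-132 had at most 4 counts in a library. Of the list for alternative activation 6 of 11 were tested, and mir-223 and mir-222 fell. The 14 members of the let-7 family were all tested, 2 rose and 13 had a positive log2 fold change, as had 156 of all 259 tested. Their median was 0.20 and came to 0.04 with library totals. These members may not be separate measurements. The copies of let-7a, let-7c and let-7f had nearly equal counts, with log2 fold changes of 0.21 and 0.21, 0.17 and 0.17, and 0.28 and 0.28. The 2 that rose, let-7i and let-7j, may also share reads. In the miR-17-92 cluster 0 of 6 passed, with a median of 0.01 that changed sign with library totals (-0.15). Its member mir-18a had 23, 39 and 29 counts in control and 8, 19 and 13 after TGF-β, without overlap in CPM (log2 -0.93 ± 0.31, edgeR adjusted p = 0.0693), and passed with DESeq2's size factors (0.0451) and library totals (0.0248). In the miR-30 family 0 of 6 passed, with medians of 0.06 and, with library totals, -0.09. Of the other lists, fibroblasts had a median of 0.28 over 3 tested precursors, and the 2 neuronal ones tested, mir-128-1 and mir-128-2, stood at -0.48 and -0.40. The 3 fibroblast precursors, mir-199a-1, mir-199a-2 and mir-199b, share a product and had nearly equal counts, as did the 2 neuronal ones. Within each of these lists the members may share reads and not be separate measurements. Over 5 precursors that overlap ribosomal, transfer or nucleolar RNA the median was -0.02. In each of these 3 lists 0 passed.

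Whether the changes differed from those after the other treatments was tested in the same fit by comparing TGF-β cells directly with LPS and with IL-10 cells. Against LPS 83 of the 259 precursors differed (32%) and against IL-10 38 (14.7%), by the same edgeR threshold. The balance against LPS moved with the scaling, from 36 higher and 47 lower to 71 higher and 32 lower (103 in all) with library totals. Of the 17 precursors, 13 differed from LPS, 10 of them higher after TGF-β, and 12 differed from IL-10, 6 higher and 6 lower. The 17 were chosen on the same TGF-β libraries, so these counts are a description. Against both, 9 differed, and let-7i, let-7j, mir-504, mir-93 and mir-744 were higher than in either, while mir-21a, mir-222 and mir-223 were lower.

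The level of mir-21a was 695 ± 101 CPM after TGF-β, 1415 ± 181 in control, 5289 ± 51.6 after IL-10 and 5741 ± 197 after LPS (SD, n = 3). It was 8.26-fold lower than after LPS and 7.61-fold lower than after IL-10 (edgeR adjusted p = 5.51e-14 and 4.32e-13). The TGF-β libraries alone lay below the controls. For mir-222 the means were 370 ± 40.5 after TGF-β, 767 ± 46.2 in control, 1300 ± 76.0 after IL-10 and 3742 ± 153 after LPS, again with TGF-β lowest. For mir-504 TGF-β was highest, with 64.0 ± 25.2 CPM against 14.4 ± 3.60, 13.0 ± 6.14 and 7.45 ± 3.04 in control, IL-10 and LPS. It was 8.04-fold higher than after LPS (edgeR adjusted p = 0.00067) and 4.84-fold higher than after IL-10 (adjusted p = 0.00113). As mir-504 passed the filter through its TGF-β libraries alone, these differences are a description. The levels of mir-744 were 2390 ± 59.2 CPM after TGF-β, 1678 ± 105 in control, 1356 ± 279 after IL-10 and 1019 ± 63.7 after LPS.

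Among the other precursors that fell after TGF-β, mir-210, mir-326 and mir-351 were lower still after LPS. The levels of mir-210 were 711 ± 330 CPM after TGF-β, 345 ± 188 after LPS and 1192 ± 461 after IL-10, and it was 2.08-fold higher than after LPS (edgeR adjusted p = 0.0195). After LPS mir-326 was at 224 ± 40.8 CPM, and the TGF-β level of 542 ± 31.4 was 2.43-fold higher (edgeR adjusted p = 0.000162). For mir-351 the levels were 218 ± 11.5 and 154 ± 42.3 CPM, a difference of 0.52 ± 0.20 on the log2 scale (edgeR adjusted p = 0.0449). For mir-322 the difference from LPS was 0.08 ± 0.16 on the log2 scale and for mir-503 it was -0.16 ± 0.43 (edgeR adjusted p = 0.749 and 0.778), neither past the threshold. Against IL-10 the mir-322 cluster was lower after TGF-β, by log2 -1.07 ± 0.14 for mir-322, -1.27 ± 0.33 for mir-503 and -1.21 ± 0.15 for mir-351, each past the threshold.

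**Figure D4:**
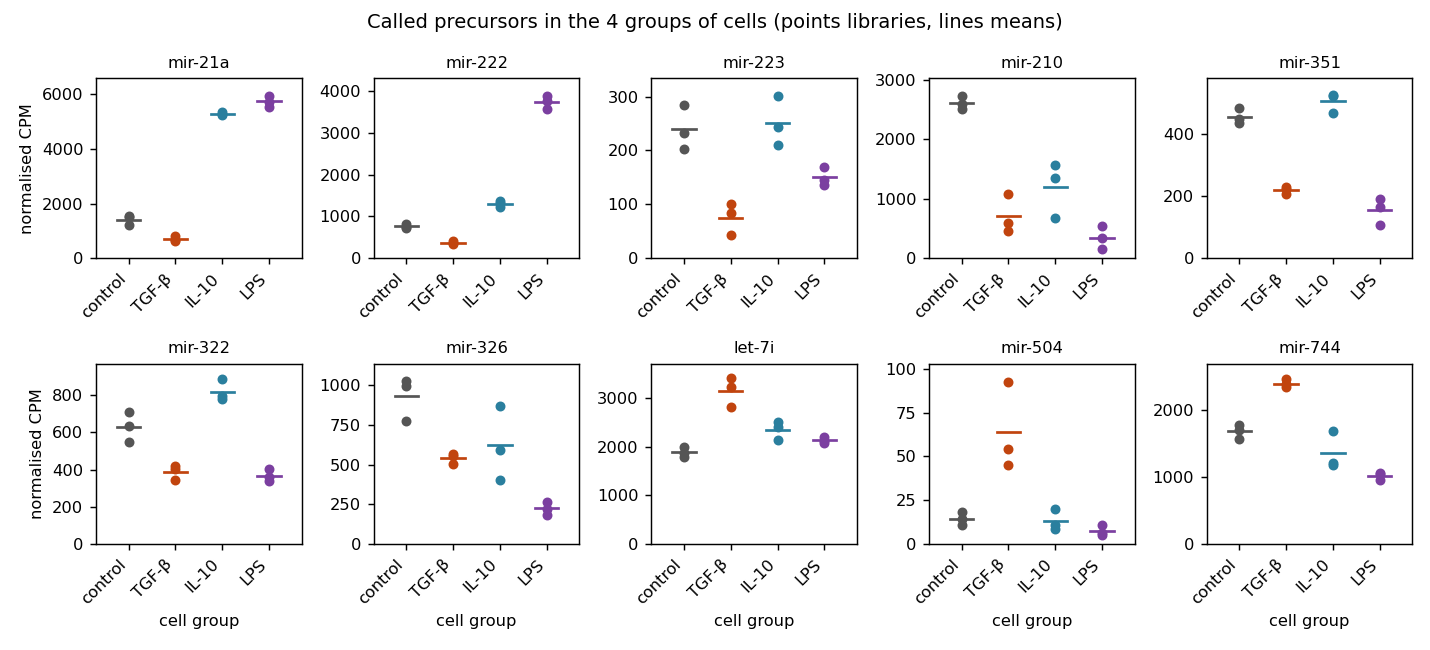
Normalised CPM of 10 of the 17 precursors in control, TGF-β, IL-10 and LPS cells, with a point for each library and a line at the mean of 3. The TGF-β points are the lowest for mir-21a, mir-222 and mir-223 and the highest for let-7i, mir-504 and mir-744.

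In the EVs most of the same precursors had few counts, with library totals of 15071 to 18047 counts in the 6 EV libraries concerned. The precursors mir-223, mir-504, mir-503 and mir-872 had 0 counts in the 3 control and 3 TGF-β EV libraries. The change in cells was tested against that in EVs over all 24 libraries, and 0 of 280 precursors differed (0%) by edgeR's test, with 30 at an unadjusted p under 0.05, while DESeq2's Wald test called 12. Of the 17 precursors 16 entered this fit, mir-504 having too few counts. For mir-223, mir-503 and mir-872, at 0 in these EV libraries, the test could decide nothing (log2 SE of 3447, 3552 and 798). Among the others the adjusted p was lowest for let-7i, let-7j and mir-34a (edgeR, 0.0862 each). The counts of let-7i were 12, 2 and 8 in control EVs and 1, 2 and 2 in TGF-β EVs, the opposite sign to the cells, with overlapping groups. Those of mir-34a were 0, 0 and 0, then 3, 8 and 1, so that it was counted in 3 of 3 TGF-β and 0 of 3 control EV libraries. For mir-23a, the most abundant of the 17 in the EVs, the counts were 42, 35 and 59, then 18, 26 and 32, a difference in sign from the cells that missed the threshold (edgeR adjusted p = 0.465).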

How the data were processed

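RNA was extracted with a miRNeasy kit and small RNA libraries were made with the SMARTer kit, per the labels. The authors deposited whole-number counts of reads per microRNA precursor, not normalized; DESeq2 is named in the submitters' processing notes with no version. For the aligner, build, annotation and treatment of reads that fit several precursors, nothing is given in the sources used here. The study's tables number 8, of which 6 were used and 2 are identical copies. Columns name a group and a number, not a sample.

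Counts were tested with edgeR 4.0.16 (R 4.3.3): TMM scaling, precursors kept by filterByExpr (minimum count 10), and the two-sided quasi-likelihood F test in 1 fit over the 12 cell libraries (8 residual degrees of freedom), and over 24 libraries (16) for cells against EVs. P-values were adjusted by Benjamini-Hochberg over all precursors tested and called under 0.05. SEs come from the F statistic. The SD is over 3 libraries. Replicate libraries differed by more than sampling noise (chi-square over degrees of freedom 4.52 to 19.4). The procedure was tested on simulated data.

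The comparison, lists and named precursors were chosen with earlier results of these data known. Named are all called precursors, the 8 next by p, members of the lists and neighbours or copies. Pairs for count ratios were chosen from their values. Positions were matched by name to RefSeq (GRCm38.p6) or GENCODE vM21 (GRCm38), for 244 of 259 tested. PCR copies were not separated from molecules.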

Additional observations from a re-analysis of the deposited data

How the results depend on the processing

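Alternatives tried were DESeq2's size factors, library totals, no low-count filter, a minimum mean of 50 counts, a robust prior, DESeq2 1.42.0 with its Wald test, only the groups compared, numbered copies summed, each library left out, and the column number as a replicate block. The number of called precursors in TGF-β against control cells was 14 to 25 beside 17, and the replicate block gave 15; same-numbered columns did not deviate together (correlations -0.20, 0.01 and -0.19). No named call changed sign. Of the 17 calls, 10 were kept in every setting that tested them: mir-222, mir-21a, mir-351, mir-223, mir-210, mir-322, mir-503, let-7i, let-7j and mir-504. The single losses of mir-326 and of mir-23a and mir-23b, and the losses of mir-93, came with the libraries named above or, for mir-93, also with library totals and without a filter. Among the named precursors that missed the threshold, 9 passed in some setting: mir-221 in 8 (adjusted p = 0.0240 with DESeq2's size factors), mir-18a in 6, mir-188 in 5, mir-1981 in 4, mir-125b-2 and mir-25 in 3, and mir-125b-1, mir-29b-1 and mir-29b-2 in 1. Against LPS leaving out a library gave 76 to 92 calls, and against IL-10 27 to 37. For cells against EVs, 0 calls became 4 with DESeq2's size factors, 3 without a filter, 3 at a minimum mean of 50 counts, 12 with the Wald test, and 0 to 4 with a library left out (4 without TGF-β EV library 1); the cause was not tested. Depth limits mir-504, mir-503, mir-450b and all EV values.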
